A study of Mus musculus with 16 samples.

Results

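The chromosome 3 cluster of guanylate-binding protein (Gbp) genes was examined through every H3K27ac peak whose nearest edge lay within 50 kb of an annotated start site of Gbp2, Gbp3, Gbp5 or Gbp7. This rule uses position in mm10 and no measured value. The 6 start sites of these 4 genes give 1 continuous window, chr3:142446900-142670602, of 224 kb. It held 7 of 43533 peaks in the Control list, 12 of 40708 in the IFNγ list, 11 of 44090 in the PJ34 list and 11 of 42960 in the IFNγ+PJ34 list. Overlapping peaks of the 4 lists merged into 12 regions of 55218 in all, named R1 to R12 here from the Gbp5 end to the Gbp2 end. All 4 genes lie on the plus strand, in the order Gbp5, Gbp7, Gbp3 and Gbp2. Another protein-coding gene of the family, Gbp2b, starts between Gbp3 and Gbp2, and the window also holds start sites of Gbp2-ps, Gm19166, Gm43802 and Mir6381.

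H3K27ac is an acetylation of histone H3 that marks promoters and enhancers in use. It was mapped by ChIP-seq in bone marrow-derived macrophages (BMDMs), primary cells grown from the marrow of C57Bl6 mice aged 8 to 12 weeks. Control cells received no treatment, IFNγ cells received 100 ng/mL of the cytokine for 1 h, PJ34 cells received 20 µM of this inhibitor of poly(ADP-ribose) polymerases, and IFNγ+PJ34 cells received the inhibitor 1 h before the cytokine. PJ34 acts on several PARP enzymes, so it is not a model of the loss of a single one. Each condition had 2 replicates and a matched input, but the deposited list of a condition was made from both replicates. No value below therefore has a replicate error, no test between conditions was possible, and intervals cover counting error only.

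The lists are of macrophages by their marks. A peak lay within 1 kb of a start site for 10 of 10 macrophage markers in each list, against 0 of 5 neutrophil, 0 of 4 T cell and 0 of 4 fibroblast markers. Of the B cell markers 1 of 4 (Ms4a1) had a peak in each list, as had the erythroid gene Klf1. Read depth is unknown, since the lists give no read counts. In a bulk culture, more cells carrying the mark and more mark per cell cannot be told apart.

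GBPs are large GTPases of the dynamin superfamily that macrophages make in quantity when interferon reaches them. They assemble on the vacuoles of intracellular parasites and on the surface of cytosolic bacteria, break or coat these membranes, and help inflammasomes and caspases to sense what is released. IFNγ binds its receptor and activates the kinases JAK1 and JAK2, and the route ends at short DNA elements, the GAS element and the ISRE, the latter bound by IRF factors. GBP genes carry such elements near their start sites and are textbook targets of this route.

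The DNA just before the start sites is shown because the strongest peaks of the cluster lie over it and because it holds the elements named above. Sequences are from GRCm38 (mm10), plus strand, read 5′ to 3′. Each stretch is the 250 bases before the earlier of the RefSeq and GENCODE starts, except that of Gbp2. That stretch begins 250 bases before the RefSeq start and runs 20 bases past the earlier GENCODE start to include a match. Capitals mark matches to the GAS pattern TTCNNNGAA or the ISRE pattern, which is GAAA, any 2 bases and GAAA again. Both strands were searched, and all ISRE matches printed here lie on the minus strand, so that they read as TTTC, any 2 bases and TTTC.
Gbp5 promoter, chr3:142496650-142496899: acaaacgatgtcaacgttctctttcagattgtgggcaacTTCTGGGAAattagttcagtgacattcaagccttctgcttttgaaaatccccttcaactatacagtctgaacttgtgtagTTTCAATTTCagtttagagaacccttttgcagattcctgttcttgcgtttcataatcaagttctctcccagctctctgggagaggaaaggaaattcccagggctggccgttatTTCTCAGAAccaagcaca
Gbp7 promoter, chr3:142530086-142530335: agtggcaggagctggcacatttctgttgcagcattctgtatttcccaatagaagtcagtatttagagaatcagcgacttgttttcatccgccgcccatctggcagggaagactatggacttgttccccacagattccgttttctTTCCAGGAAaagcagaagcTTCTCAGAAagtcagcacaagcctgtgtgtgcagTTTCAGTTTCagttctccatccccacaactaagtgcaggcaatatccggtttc
Gbp3 promoter, chr3:142559794-142560043: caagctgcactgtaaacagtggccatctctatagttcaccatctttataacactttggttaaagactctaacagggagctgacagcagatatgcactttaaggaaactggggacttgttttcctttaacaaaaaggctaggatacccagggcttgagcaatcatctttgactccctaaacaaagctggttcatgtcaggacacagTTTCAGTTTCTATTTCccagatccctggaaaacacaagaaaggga
Gbp2b promoter, chr3:142594597-142594846: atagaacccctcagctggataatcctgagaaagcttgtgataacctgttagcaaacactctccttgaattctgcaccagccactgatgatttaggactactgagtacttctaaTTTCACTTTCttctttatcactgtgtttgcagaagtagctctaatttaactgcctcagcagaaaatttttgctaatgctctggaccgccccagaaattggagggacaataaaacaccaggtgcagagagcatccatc
Gbp2 promoter, chr3:142620413-142620621: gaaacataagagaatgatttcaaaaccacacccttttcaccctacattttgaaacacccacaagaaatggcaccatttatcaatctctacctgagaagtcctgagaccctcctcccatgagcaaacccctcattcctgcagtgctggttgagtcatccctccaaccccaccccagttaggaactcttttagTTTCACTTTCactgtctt

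Each of the 5 promoters held an ISRE match. Counted from the first GENCODE start to the first base of the match, it lay at -131 in Gbp5, -59 in Gbp7, -53 and -47 in Gbp3, where the 2 matches overlap, and at 2 in Gbp2. In Gbp2b, whose start is the same in both annotations, it lay at -137. GAS matches were found in the promoters of Gbp5 at -211 and -18 and of Gbp7 at -112 and -93, the one at -112 also in the stricter form TTCCNGGAA. No GAS match was found in these windows of Gbp3, Gbp2b and Gbp2. Over 32851 RefSeq promoter windows of 250 bases before to 50 after a start, 3.44% held an ISRE match, 8.30% a GAS match and 0.454% both. A match is a resemblance in letters and was not tested for binding.

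Peaks were present at 4 of the 5 starts in every list, and the cluster's peaks covered more bases in both lists with IFNγ. The 7 Control peaks covered 12.7 kb or 5.66% of the window, the 12 IFNγ peaks 22.7 kb or 10.1%, the 11 PJ34 peaks 14.5 kb or 6.47%, and the 11 IFNγ+PJ34 peaks 21.9 kb or 9.79%. The covered length was 1.79 times the Control length in IFNγ and 1.51 times the PJ34 length in IFNγ+PJ34. Over the genome the lists without IFNγ covered more, with 52.6 Mb in Control, 42.5 Mb in IFNγ, 47.9 Mb in PJ34 and 44.1 Mb under IFNγ+PJ34. Divided by these totals, the first ratio was 2.22 and the second 1.64.

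**Figure D1:**
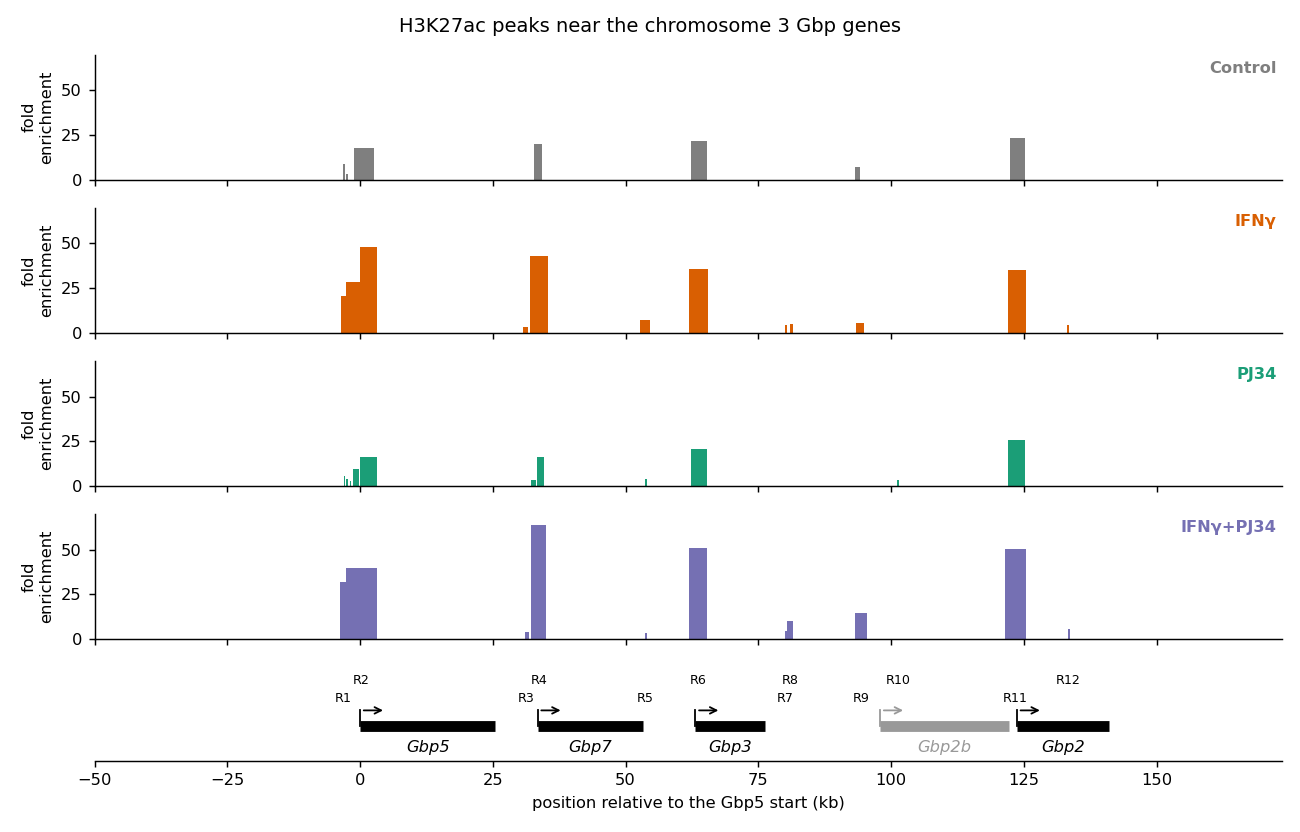
H3K27ac peaks along the chromosome 3 Gbp window in the 4 lists, plotted by position in kb from the Gbp5 start (bar width is peak width, bar height the fold enrichment over local background), with genes, start arrows and the regions R1 to R12 below. The tallest bars stand at the starts of Gbp5, Gbp7, Gbp3 and Gbp2 in every list, between 16.1 and 25.6 in Control and PJ34 and between 35.4 and 64.0 in IFNγ and IFNγ+PJ34, and none stands at the start of Gbp2b.

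To ask which sites appeared with IFNγ, presence was compared by an overlap of at least 1 bp. Of the 12 IFNγ peaks 5 were absent from Control (41.7%, exact Clopper-Pearson 95% interval 15.2 to 72.3), against 16.8% of all IFNγ peaks, so the interval reaches down to the share of the whole list. These 5 lay in R3, R5, R7, R8 and R12. None of the 7 Control peaks was absent from IFNγ (0%, 0 to 41.0), while 31.7% of all Control peaks were. The gained peaks had folds from 3.52 to 7.35 and score percentiles from 32.0 to 58.8 within the IFNγ list. A score percentile is the share of the list that ranked lower by −log10 p. This value followed the authors' whole-number score closely (Spearman 0.998 in PJ34 to 0.999 in IFNγ+PJ34). Restricted to the higher-scoring 50% of each list, 1 of 8 IFNγ peaks was absent from Control (12.5%), and with a required overlap of 50% of the peak 9 of 12 were (75%). The shares of all peaks at these settings are not given, so neither value can be set against the 16.8%. An absent peak is one that was not called in both replicates, which is not the same as no acetylation, and the weakest peak in the Control list had a fold of 1.63.

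The gained sites were next located relative to the genes. R3 (chr3:142527542-142528709) lay at -1.63 kb from the Gbp7 start by its nearest edge, at a fold of 3.52 in IFNγ and 4.08 in IFNγ+PJ34. R5 (chr3:142549643-142551427) lay across the 3′ end of Gbp7, at -8.63 kb from the first Gbp3 start, with a fold of 7.35 in IFNγ, 4.08 in PJ34 and 3.39 under IFNγ+PJ34. R7 (chr3:142576877-142577204) and R8 (chr3:142577373-142578463) were neighbours between Gbp3 and Gbp2b. R7 stood at 4.38 in IFNγ and 4.34 in IFNγ+PJ34, and R8 at 4.74 and 9.85. R12 (chr3:142630072-142630560), in an intron of Gbp2, stood at 4.15 and 5.48. R3, R7, R8 and R12 had no peak in Control or PJ34.

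Among these gained sites R5 and R7 each held a GAS match, printed here from GRCm38 with the match in capitals, beside the match of R1, a region upstream of Gbp5 that is described below.
R5, chr3:142550555-142550615: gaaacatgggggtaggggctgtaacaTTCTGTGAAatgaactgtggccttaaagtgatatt
R7, chr3:142577138-142577198: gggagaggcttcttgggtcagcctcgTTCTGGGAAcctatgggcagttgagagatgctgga
R1, chr3:142494113-142494173: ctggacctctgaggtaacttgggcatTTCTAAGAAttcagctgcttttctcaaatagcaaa

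R3 held an ISRE match and no GAS match, and R8 and R12 held neither. R10, the region found only in PJ34, also held neither, as did R9. The presence of a match therefore did not separate the gained from the other regions in these 12.

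**Figure D2:**
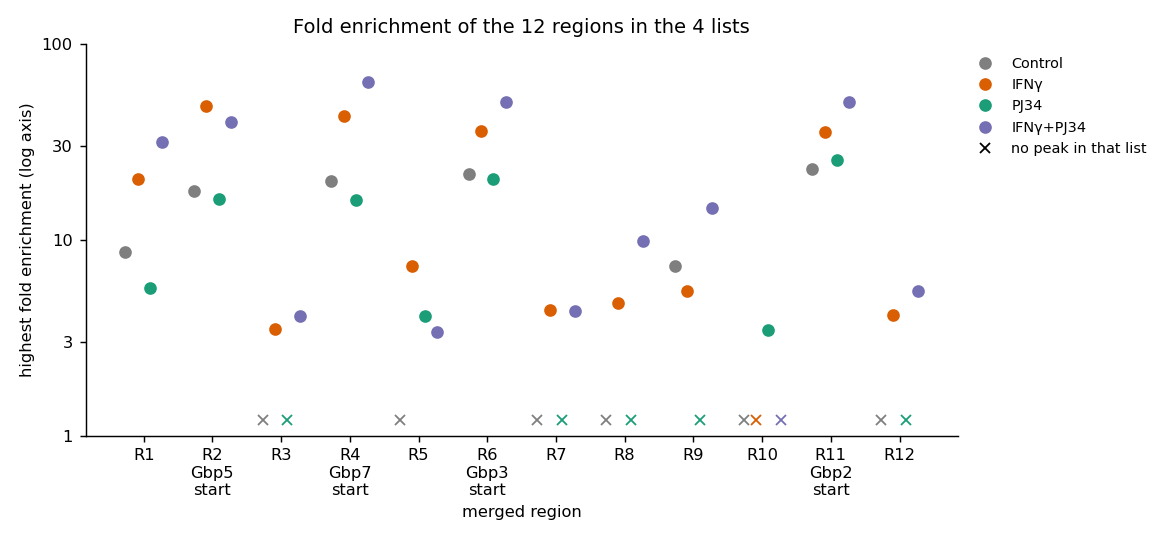
Highest fold enrichment (log axis) of each merged region R1 to R12 in each list, a point per list and a cross where the list has no peak there. Points of IFNγ and IFNγ+PJ34 stand above those of Control and PJ34 at R1 and at the 4 starts (R2, R4, R6, R11), R3, R7, R8 and R12 have points in the 2 lists with IFNγ and no others, and R10 has a point in PJ34 alone.

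By presence, 5 of the 12 regions were in all 4 lists (R1, R2, R4, R6 and R11), as were 38.9% of all 55218 regions. The 4 regions R3, R7, R8 and R12 were in IFNγ and IFNγ+PJ34 alone, a pattern of 2.29% of all regions. R5 was missing from Control alone (1.35% of all), R9 from PJ34 alone (1.52% of all) and R10 was in PJ34 alone (8.93% of all). Counted by list, 6 of 12 regions had a peak in Control, 7 in PJ34, 11 in IFNγ and 11 in IFNγ+PJ34, against 69.3%, 65.2%, 57.4% and 61.9% of all regions.

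At the starts the question was how strong the peak was. The fold enrichment is the authors' ratio of ChIP to local background at the summit, and where a list had several peaks in a region the highest is given. R2 (chr3:142494220-142500161) at Gbp5, a member known for its part in inflammasome responses, stood at 17.9 in Control, 48.2 in IFNγ, 16.2 in PJ34 and 40.0 under IFNγ+PJ34. R4 (chr3:142528944-142532353) at Gbp7, which acts in the oxidative defence of macrophages, stood at 20.0, 42.7, 16.1 and 64.0 in the same order. R6 (chr3:142558780-142562357) at Gbp3 stood at 21.6, 36.0, 20.6 and 50.7. R11 (chr3:142618437-142622284) at Gbp2, a GBP recruited to the Toxoplasma vacuole, stood at 23.1, 35.4, 25.6 and 50.3. At each of the 4 starts both lists with IFNγ lay above both lists without it.

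The ratio of IFNγ to Control was 2.70 at Gbp5, 2.14 at Gbp7, 1.67 at Gbp3 and 1.53 at Gbp2. The fold differs in scale between lists, since over the 25925 regions found in both lists the median ratio was 0.777 (log2 -0.36, 5th to 95th percentile -1.61 to 0.90). Values were therefore also read relative to that median, and a ratio past 1.5-fold of it was counted. On this scale 5 of the 6 Gbp regions in both lists were higher (R1, R2, R4, R6 and R11) and 0 lower, against 20.7% of all regions higher and 20.7% lower. The median log2 ratio of the 6 was 0.92. Among the 8372 regions in the top 25% of both lists by score percentile, 15.7% were higher. Ranked among the 25925 ratios, from the highest down, R2 held place 364, R1 592, R4 828, R6 1869 and R11 2414.

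R1 (chr3:142493169-142494177), intergenic and at -2.72 kb from the Gbp5 start, stood at 8.65 in Control, 20.5 in IFNγ, 5.70 in PJ34 and 31.6 under IFNγ+PJ34. A short gap in the calls separates it from R2. R9 (chr3:142590109-142592364), at -2.48 kb from the Gbp2b start, did not share this order. It stood at 7.36 in Control, 5.51 in IFNγ and 14.5 in IFNγ+PJ34, with no peak in PJ34, and its ratio of IFNγ to Control (log2 -0.42) was close to the median of all regions (-0.36).

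**Figure D3:**
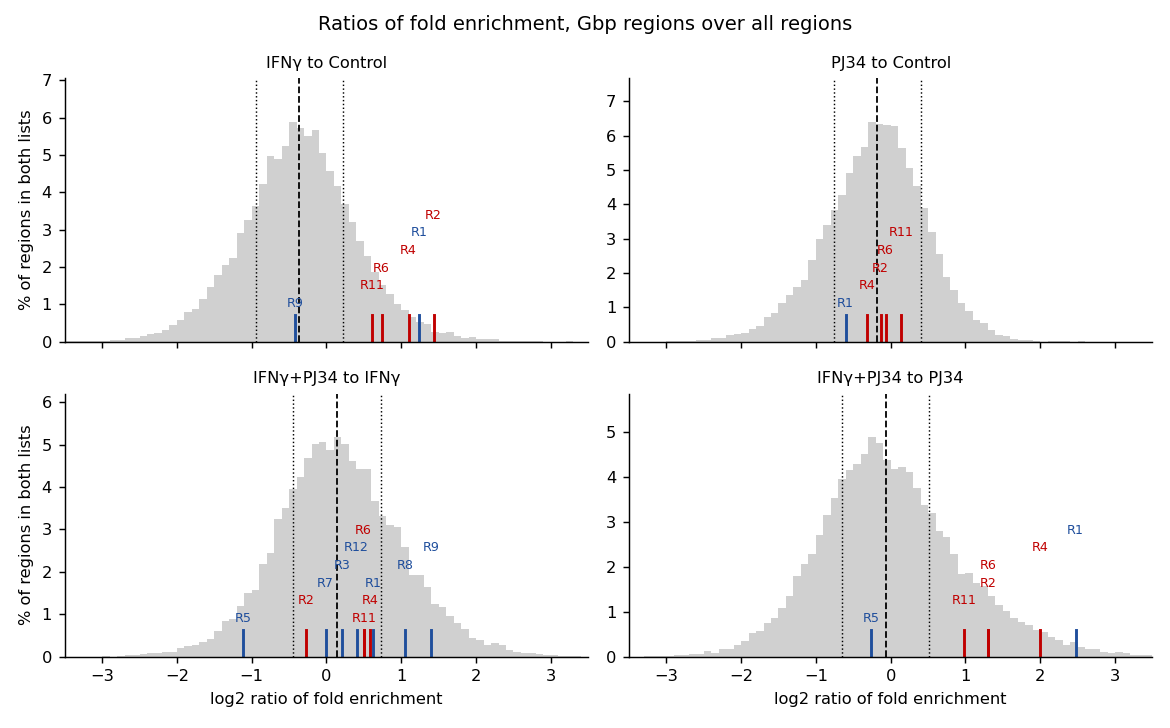
Distribution of log2 ratios of fold enrichment over all regions found in both lists (grey, % of regions per bin) for 4 pairs of lists, with the median (dashed), the 1.5-fold limits around it (dotted) and the Gbp regions as ticks (red at a start, blue elsewhere). Red ticks stand right of the upper limit in IFNγ to Control and IFNγ+PJ34 to PJ34, and inside the limits in PJ34 to Control and IFNγ+PJ34 to IFNγ.

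The score percentile does not depend on the scale of the fold, and it gave a similar order. The 4 start regions stood between percentiles 79.6 and 85.3 in Control, 95.6 and 97.3 in IFNγ, 80.8 and 89.3 in PJ34, and 98.4 and 99.2 under IFNγ+PJ34. The best of them was R11 in Control at rank 6389 of 43533, R4 in IFNγ at 1093 of 40708, R11 in PJ34 at 4714 of 44090 and R11 in IFNγ+PJ34 at 340 of 42960. R1 stood at 58.5 in Control, 84.4 in IFNγ, 51.5 in PJ34 and 92.0 under IFNγ+PJ34. The median difference in percentile from Control to IFNγ was 16.1 points over the 6 Gbp regions in both lists and -2.22 points over all regions.

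**Figure D4:**
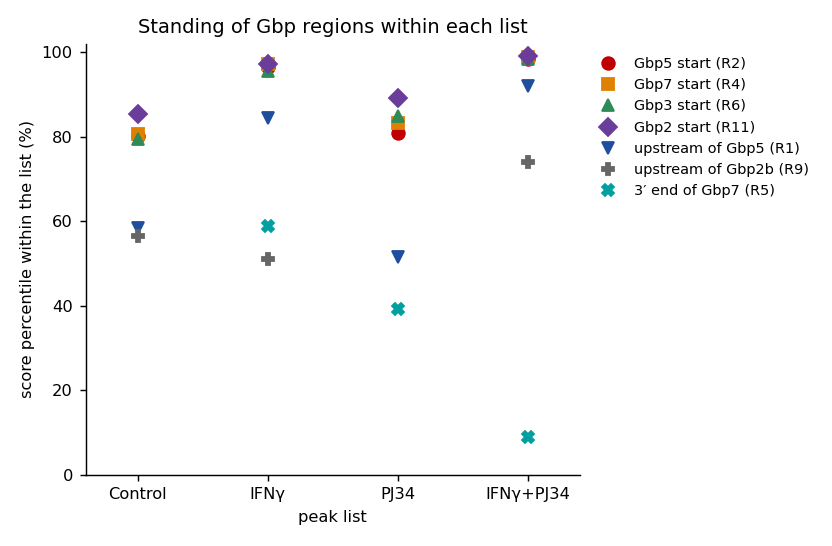
Score percentile within each list (by −log10 p, 100% is the highest) of the 4 start regions and of R1, R5 and R9, a symbol per region. The start regions lie near 80 to 89% in Control and PJ34 and above 95% in the 2 lists with IFNγ, while R5 has no symbol in Control and stands lowest in IFNγ+PJ34, at 8.86%.

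The peaks at the starts also differed in extent. At Gbp7 the peaks of R4 covered 1483 bp in Control, 2298 bp in PJ34 (in 2 calls), 3410 bp in IFNγ and 2893 bp under IFNγ+PJ34. In the order Control, IFNγ, PJ34, IFNγ+PJ34, the single peak of R11 at Gbp2 was 2670, 3388, 3156 and 3802 bp wide, and that of R6 at Gbp3 was 3042, 3446, 2930 and 3413 bp wide. At Gbp5 the calls broke up differently in each list. R2 held 2 peaks in Control, 2 in IFNγ, 4 in PJ34 and a single one of 5940 bp in IFNγ+PJ34. In IFNγ the break fell just before the start, between 142496790 and 142496849, and in PJ34 between 142496775 and 142496869. The -131 ISRE match begins inside the left peak and the -18 GAS match lies inside the right peak in both lists. Since a summit belongs to 1 call, the folds of Gbp5 in IFNγ (48.2, summit at 432 bp) and in IFNγ+PJ34 (40.0, summit at -422 bp) come from different sides of the start. The IFNγ call on the same side as that of IFNγ+PJ34 had a fold of 28.6 (summit at -514 bp).

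**Figure D5:**
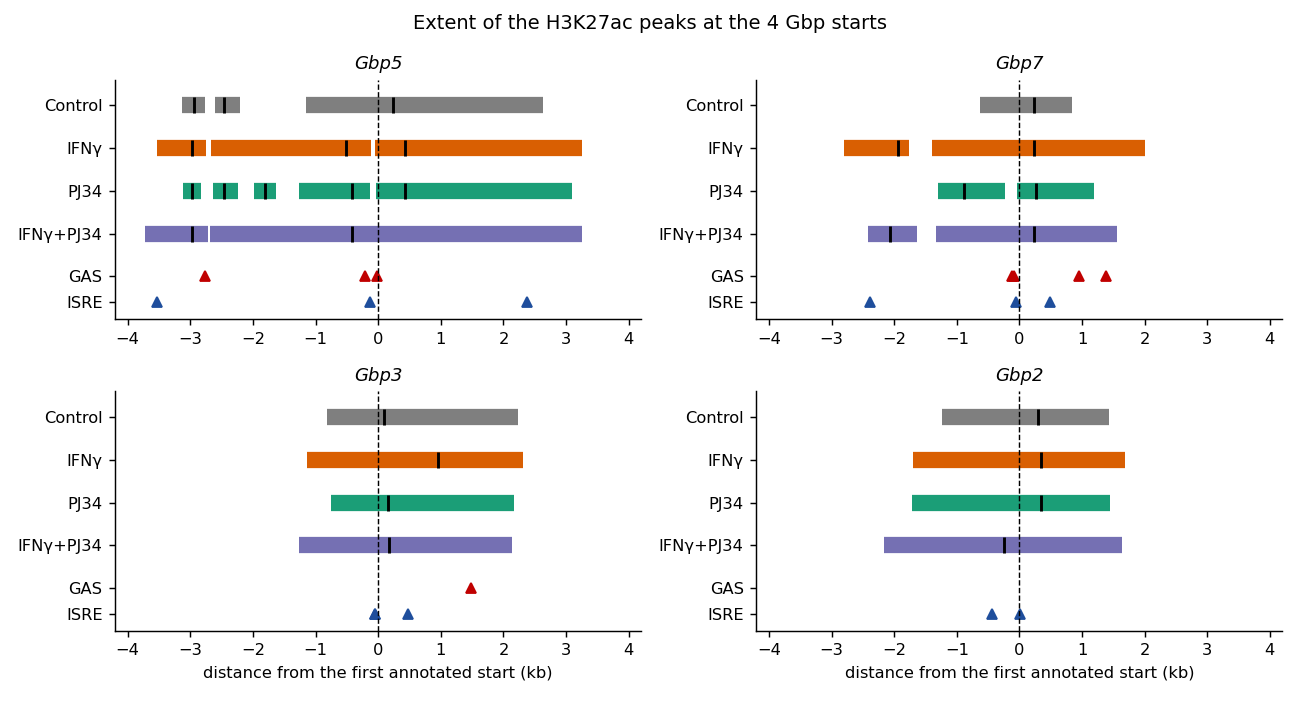
Extent of the called peaks (bars, black tick at the summit) in each list within 4.2 kb of the first annotated start of Gbp5, Gbp7, Gbp3 and Gbp2, in kb, with GAS and ISRE matches inside the merged regions as triangles. A peak crosses each start in every list, and the one at Gbp7 spans 1237 bp in PJ34, 1483 bp in Control, 2893 bp in IFNγ+PJ34 and 3410 bp in IFNγ.

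Peaks outside the start regions ran from 238 to 2172 bp, and their ranks are given with the strongest peak of a list at rank 1. R3 was 1033 bp wide in IFNγ and 791 bp under IFNγ+PJ34, and R12 419 and 260 bp. R7 was 328 and 238 bp and R8 549 and 1028 bp, with R8 at rank 20565 in IFNγ and 15092 under IFNγ+PJ34. R5 went from 1785 bp at rank 16763 in IFNγ to 344 bp at rank 39156 under IFNγ+PJ34, and its peak in PJ34 had 298 bp. R9 was 899 bp wide at rank 18892 in Control, 1643 bp at rank 19899 in IFNγ and 2172 bp at rank 11097 under IFNγ+PJ34. Small calls also lay inside the start regions. Next to the main Gbp5 peak stood one of 399 bp in Control at a fold of 3.38, and in PJ34 ones of 403 bp at 4.03, 350 bp at 2.56 and 1146 bp at 9.33. At Gbp7 PJ34 had a further call of 1061 bp at 3.47 before the start.

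At Gbp2b no list had a peak within 1 kb of the start, although the window of 50 kb around it held 3, 7, 4 and 7 peaks in Control, IFNγ, PJ34 and IFNγ+PJ34. The nearest was R9 on one side and, in PJ34, R10 (chr3:142597931-142598406, fold 3.48) 3.08 kb inside the gene. GBP genes resemble each other, and the authors kept uniquely mapped reads, so the share of positions whose 31-base sequence occurs once in the genome was counted. It was 94.8% within 1 kb of the Gbp2b start, 97.5% at Gbp5, 99.6% at Gbp7, 99.95% at Gbp3 and 98.8% at Gbp2. Over the 12 regions it ran from 92.5% in R9 to 100% in R5, R10 and R12, and it was lowest in the body of Gbp5, at 72.6%, where no peak beyond R2 was listed.

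For PJ34 without IFNγ the comparison asks whether the inhibitor alone altered the marks. Of the 11 PJ34 peaks 3 were absent from Control (27.3%, 6.02 to 61.0), against 19.5% of all PJ34 peaks. They were R5, R10 and a call of 350 bp inside R2, which fell between the 2 Control calls of that region. The last is a split call within a region marked in Control, not a new region. The 11 peaks lay in 7 regions, so the interval counts parts of a region as separate peaks. Over the 5 Gbp regions in both lists the median log2 ratio was -0.14, and that of all 28321 regions -0.18. Relative to the latter 0 of the 5 were higher and 0 lower past 1.5-fold, against 16.9% and 19.5% of all regions. The ratios were 0.910 at Gbp5, 0.804 at Gbp7, 0.954 at Gbp3, 1.10 at Gbp2 and 0.659 at R1. Differences smaller than this limit are not addressed by lists with no replicate spread.

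With IFNγ in both lists, the comparison of IFNγ+PJ34 with IFNγ asks whether the inhibitor altered the response. None of the 12 IFNγ peaks was absent from IFNγ+PJ34 (0%, 0 to 26.5), against 24.1% of all IFNγ peaks, and none of the 11 IFNγ+PJ34 peaks was absent from IFNγ (0%, 0 to 28.5), against 27.2%. IFNγ+PJ34 held all 5 gained peaks (100%, 47.8 to 100), against 38.8% of all 6842 gained peaks. In PJ34 1 of the 5 was found (20%, 0.505 to 71.6), that in R5, against 43.6% of all.

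In fold enrichment IFNγ+PJ34 lay above IFNγ at 3 of the 4 starts, within 1.5-fold of the median of all regions. IFNγ+PJ34 stood at 0.829 times IFNγ at Gbp5, 1.498 times at Gbp7, 1.41 times at Gbp3 and 1.42 times at Gbp2, with a median ratio of 1.10 over all 24317 regions in both lists. At Gbp5 the direction turns with the call that is compared, since against the IFNγ call on the same side of the start the ratio was 1.40, and the score percentile was 96.4 in IFNγ and 98.4 in IFNγ+PJ34. Over the 11 Gbp regions in both lists the median log2 ratio was 0.49, and 2 were higher and 1 lower past 1.5-fold of the median, against 24.0% and 22.2% of all regions. The higher ones were R8 (2.08 times) and R9 (2.64 times) both between Gbp3 and Gbp2b. The lower one was R5 (0.462 times), whose score percentile was 58.8 in IFNγ and 8.86 in IFNγ+PJ34.

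Against PJ34, IFNγ+PJ34 gave the effect of the cytokine in the presence of the inhibitor. Of the 11 IFNγ+PJ34 peaks 5 were absent from PJ34 (45.5%, 16.7 to 76.6), against 25.7% of all. Within 10 kb of a start the share was 25%, near that of all peaks. It was 28.6% when the lower 50% by score was dropped from each list, a setting for which the share of all peaks is not given. Of the 11 PJ34 peaks 1 (R10) was absent from IFNγ+PJ34 (9.09%, 0.230 to 41.3), against 31.6% of all. The ratio was 2.46 at Gbp5, 3.98 at Gbp7, 2.46 at Gbp3, 1.97 at Gbp2 and 5.55 at R1. At Gbp5 it again compares different sides of the start, with summits at -422 bp in IFNγ+PJ34 and 433 bp in PJ34. The PJ34 call on the same side as that of IFNγ+PJ34 (summit at -425 bp) had a fold of 9.33. At Gbp2 the summit of the single peak lay at -251 bp in IFNγ+PJ34 and at 340 bp in PJ34. Of the 6 Gbp regions in both lists 5 were higher past 1.5-fold of the median and 0 lower, against 26.9% and 24.0% of all 24313 regions. R5 was the remaining one, at 0.832 times.

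The effect of IFNγ without and with PJ34 rests on separate lists and was set side by side for the 5 Gbp regions in all 4 lists. Relative to the median of the 21468 regions in all 4, the log2 ratio was 1.84 without and 1.43 with PJ34 at Gbp5, 1.51 and 2.12 at Gbp7, 1.15 and 1.43 at Gbp3, 1.02 and 1.11 at Gbp2, and 1.65 and 2.60 at R1. By fold the value was larger with PJ34 at Gbp7, Gbp3, Gbp2 and R1. The gain in score percentile was also larger with PJ34 at R1 (25.9 points without, 40.5 with). It was smaller with PJ34 at Gbp7 (16.6 and 15.6), Gbp3 (16.1 and 13.5) and Gbp2 (11.9 and 9.90). In that order, these starts already stood at higher percentiles in PJ34 (83.3, 85.1 and 89.3) than in Control (80.8, 79.6 and 85.3). Under IFNγ+PJ34 they stood at 98.8, 98.6 and 99.2, near the top of the scale. Less room was therefore left for a gain with PJ34, so the smaller gain in percentile gives no direction at these starts. At Gbp5, where the calls were split differently, no direction is given, since the ratio was smaller with PJ34 while the gain in score percentile was 16.2 points without and 17.5 points with it. Whether these differences exceed the spread between replicates cannot be told from the lists.

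The cluster was then set beside other genes of the pathway by the highest peak within 1 kb of a start, with 1.5-fold limits around the median of protein-coding genes. That median was log2 -0.42 for IFNγ to Control, -0.11 for PJ34 to Control, -0.06 for IFNγ+PJ34 to IFNγ and -0.36 for IFNγ+PJ34 to PJ34. From Control to IFNγ 4 of 4 members were higher, as were 4 of the 4 GBP genes of chromosome 5 with a peak in both lists and 4 of the 4 immunity-related GTPases (IRGs, which load onto the same vacuoles) with one, against 15.7% of 10652 genes higher and 16.7% lower. Irgm2 and Igtp share a start peak in Control, IFNγ and PJ34, but not in IFNγ+PJ34 (56.9 and 25.9). Gbp4 and Gbp8 share their IFNγ peak, through a long transcript of Gbp8, and the Control value of Gbp8 comes from its other start. Of the 10 genes of the receptor, kinases and factors 3 were higher and 2 lower, the lower ones being the receptor chains Ifngr1 and Ifngr2. Of the 4 partners in pyroptosis with peaks in both lists 2 were higher (Casp4 and Casp1, which share a neighbourhood) and 1 lower (Gsdmd, the pore-forming gasdermin).

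By the ratio of IFNγ to Control, Gbp5 was the highest of the listed genes with a peak in both lists (log2 1.85 above the median), before Gbp6 (1.64) and Gbp7 (1.52). By the level of the fold in Control and in IFNγ, some other genes of the pathway stood above the members. Irgm1, a regulator of the IRG system, stood at 62.1 in Control and 92.7 in IFNγ, and Socs1, the feedback inhibitor of JAK kinases, at 62.8 and 91.1. Irf8, a macrophage IRF factor, stood at 28.6 and 51.8. The chromosome 5 gene Gbp6 stood below the members, at 9.84 and 23.0. Gbp9 stood above them in Control (28.8) and below them in IFNγ (33.2). Gbp10 had no start peak in Control or IFNγ and stood at 4.76 in IFNγ+PJ34. Gbp11 and Gm12250 were not found under these names in the annotation used.

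From PJ34 to IFNγ+PJ34 4 of 4 members were higher, with 2 of 2 chromosome 5 GBP genes, 3 of 4 IRGs and 6 of 10 signal genes, against 20.4% of 10658 genes higher and 18.9% lower. Of these groups 1 signal gene (Jak2) was lower, and of the 4 partners in pyroptosis 2 were higher and 2 lower. The IRG that was not higher was Igtp, which shares its PJ34 peak with Irgm2 but not its IFNγ+PJ34 peak. From IFNγ to IFNγ+PJ34 1 of 4 members was higher (Gbp7) and 0 lower, against 19.8% and 17.6% of 10558 genes. Gbp7 passes here and not in the comparison of regions because the median of promoters lies lower than that of all regions. From Control to PJ34 0 of 4 members were higher and 0 lower, against 12.4% and 15.0% of 10852 genes, while 7 of the 10 signal genes were lower, among them Socs1 (62.8 and 27.2) and Irf1 (73.1 and 33.9).

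By presence, an IFNγ-gained peak lay within 50 kb of 4 of 4 members, and of 26.0% of all 21911 protein-coding genes. The 4 windows overlap, so a peak may be counted for several of them. Gbp7 and Gbp3 had 4 each, Gbp2 3 and Gbp5 1. In the chromosome 5 cluster 11 of 15 IFNγ peaks were absent from Control, the IFNγ+PJ34 list held 11 of these 11 and the PJ34 list 3. That cluster differed from chromosome 3 in the IFNγ+PJ34 list, where 13 of 25 peaks were absent from IFNγ against 0 of 11. No replicate spread is at hand to test either difference.

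The profile of covered bases over the 4 lists was also compared with other genes. In the Gbp window 17.7% of the summed bases fell in Control, 31.6% in IFNγ, 20.2% in PJ34 and 30.5% under IFNγ+PJ34. Among 7070 protein-coding genes with starts over 100 kb away and enough covered bases, the 5 nearest by Euclidean distance between these shares were Man2a1 (0.0197), Majin, Vti1b, Fam131b and Ldhd (0.0264), against a median of 0.176. Man2a1 had 5192, 8633, 5664 and 7994 bp covered in Control, IFNγ, PJ34 and IFNγ+PJ34, and Ldhd 6748, 13766, 8800 and 13914 bp.

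Across the whole of the 12 regions, motif density was counted per kb with exact Poisson intervals. ISRE matches numbered 11 in 25.4 kb (0.433 per kb, 0.216 to 0.775), against 0.182 over all regions, and lay in R1, R2, R3, R4, R6 and R11. They were in 6 of 12 regions (50%) against 17.0% of all, while the control pattern GAANNNTTC, the GAS pattern with its ends exchanged, was in 8 of 12 (66.7%) against 23.3% of all, and the Gbp start regions are wider than most. GAS matches numbered 10 (0.394 per kb, 0.189 to 0.725), against 0.340 over all, and matches of the control pattern numbered 9 (0.355 per kb, 0.162 to 0.673), against 0.255. The interval lay above the value of all regions for ISRE and spanned it for GAS and the control pattern. It treats matches as independent, although an ISRE pair at Gbp3 overlaps and the Gbp genes resemble each other. The contrast between the patterns is therefore not settled by these intervals. Within 200 bp around the summits no ISRE or GAS match was found in 2.4 kb, which allows up to 1.54 per kb, and the control pattern had 2 (0.833 per kb, 0.101 to 3.01), against 0.239 over all. R4 at Gbp7, one of the wider regions, held the most matches, with 4 GAS and 2 ISRE.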

How the data were processed

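H3K27ac ChIP-seq of BMDMs under 4 conditions, with input, was used. Per the labels and the study's methods, the authors used Bowtie for alignment to mm10, Samtools and Picard to keep unique alignments that passed a quality filter, and MACS to call relaxed peaks (p-value 0.01, input as control) in every replicate separately. Peaks overlapping between the replicates formed the list of a condition. The deposited values are a whole-number score, a fold enrichment (a ratio) and −log10 p and q for each peak, all as the authors' caller wrote them. No read counts are given, so depth is unknown. Groups came from the sample titles.

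Peaks within 50 kb of a GENCODE M21 start site were taken, compared by an overlap of 1 bp and merged over the lists, in Python 3.11.15 with pandas 2.3.3 and SciPy 1.17.1. The mitochondrial chromosome was left out of gene counts. Shares have exact Clopper-Pearson 95% intervals. No replicate test was possible. The named genes are the members, other protein-coding genes of the window, a list of GBP, IRG, signalling and pyroptosis genes, and the 5 genes nearest in profile. The rule for peaks is one of position, but the cluster and the gene lists were chosen with earlier results of these data known. The erythroid marker list is not reported here in full. Functions were tested on simulated data. Overlap, distance, score, q, scaling and motif alternatives were tried.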

Additional observations from a re-analysis of the deposited data

Results flagged for a closer look

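In 2 regions the direction with IFNγ differed between the presence and absence of PJ34. In each, 1 direction is a log2 ratio and the other is a peak called in only 1 of the lists compared. In each of them one of the directions lies within 1.5-fold of the median of all regions and is no change by that limit, and the differences were not tested, since each condition has a single list. R5, at the 3′ end of Gbp7, was absent from Control and present in IFNγ at a fold of 7.35, while from PJ34 (4.08) to IFNγ+PJ34 (3.39) its log2 ratio was -0.2659. R9, upstream of Gbp2b, was lower in IFNγ (5.51) than in Control (7.36), at a log2 ratio of -0.4193, and was absent from PJ34 but present in IFNγ+PJ34 at 14.5. The first ratio was also close to the median of all regions, -0.36.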

How the results depend on the processing

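No paired analysis was possible because the lists join the replicates of a condition, and leaving out a replicate could not be tried either. Over 20 results and 113 alternatives, 97 values counted as unchanged, 11 moved and 5 reversed direction. A share or motif density counted as unchanged when it stayed inside the exact interval of the main value, and as moved otherwise. A ratio counted as unchanged when it kept its direction. The intervals of the shares are wide, so the count of 97 says little about how stable the shares are. It also includes the alternatives with q under 0.01, which could not differ. The lowest −log10 q of a peak near the Gbp genes was 2.48, so that limit dropped none of them. Values moved most when each list was cut to its higher-scoring 50%. The share of IFNγ peaks absent from Control then was 12.5%, that of PJ34 peaks absent from Control 0%, that of PJ34 peaks absent from IFNγ+PJ34 0%, and of the gained peaks, of which 1 was left, IFNγ+PJ34 held 0% and PJ34 0%. The covered bases of PJ34 relative to Control were 0.970 instead of 1.14. When 50% of the peak had to overlap, 75% of IFNγ peaks were absent from Control and 0% of gained peaks were found in PJ34. Within 10 kb of a start site 0% of PJ34 peaks were absent from IFNγ+PJ34. The median log2 ratio of PJ34 to Control, -0.14, was 0.0403 relative to the median of all regions, and the score percentile differed by 2.51 points. The ratio of IFNγ+PJ34 to IFNγ at Gbp5, 0.829, was 1.40 against the IFNγ call on the same side of the start, and the score percentile differed by 1.91 points, both alternatives chosen after seeing the data. GAS density was 0 per kb within 200 bp around the summits, and ISRE density was 0 per kb there. With the stricter GAS motif the density was 0.0394 per kb, against 0.0382 over all regions. Its matches are a part of the GAS matches, so a lower density was fixed in advance. The lists give no depth, so a peak absent from a list cannot be told from one below the calling threshold.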
